A study of Homo sapiens with 6 samples.

Results

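Genes of the neuronal cytoskeleton and of the growth cone were followed through 6 libraries of single SK-N-BE(2)-C cells, a long-established line of human neuroblastoma. The 10 genes were found by their symbols among the 36601 genes of the deposited matrices: NEFL, NEFM, NEFH, INA, STMN2, STMN4, MAP2, MAP1B, GAP43 and DCX. The rule itself uses no measured value, but the 10 genes and the gene lists were chosen with earlier results of these data known. All 10 were also present, by identifier, in the GENCODE 29 annotation of GRCh38. The cells of every library came from the same line and were detached with the enzyme reagent TrypLE before Seq-Well S3, a method in which each cell is captured in a microwell beside a bead that carries a barcode. The libraries formed 3 groups of 2 by treatment: DMSO, the solvent; TSA, the usual short form of trichostatin A, which blocks the catalytic activity of histone deacetylases (HDACs); and E6R. Per the series title, the study concerns an inhibitor of the HDAC complex that does not act on its enzyme, so the comparisons ask how the transcripts of these genes stood under E6R and under TSA. The labels used here state no dose, no time and no structure for E6R. The labels do not say that the replicates were separate cultures, so p-values measure only the spread between libraries, which may be technical. A single tumour line in culture limits the groups as a model of neurons.

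Neurons hold their shape with neurofilaments, which are intermediate filaments assembled from the light (NEFL), medium (NEFM) and heavy (NEFH) chains together with alpha-internexin (INA). Their microtubules are bound and stabilised by MAP1B, MAP2 and doublecortin (DCX), while the stathmins STMN2 and STMN4 bind tubulin and favour disassembly. GAP43 is a membrane protein of the growth cone, the motile tip of an extending axon, and is a substrate of protein kinase C. Neuroblastoma arises from the sympathoadrenal lineage of the neural crest, and its cells commonly express part of this program.

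After cells were kept that had 500 or more genes and at most 20% mitochondrial UMIs (unique molecular identifiers, which count molecules), 17589 cells remained, between 1861 and 3946 per library. They held 4206366 to 26180262 UMIs per library, with the DMSO sums the shallowest, and a median of 1053.5 to 1880 UMIs per cell. The line was checked against fixed markers: all 10 adrenergic neuroblastoma markers had UMIs in every library, with a summed level of 3447 to 5874 CPM (UMIs of a gene per 1000000 UMIs of the library), and the 10 mesenchymal ones were also all present at 540 to 1098 CPM. Summed glial markers lay at 14.9 to 22.6 CPM and immune markers at 7.83 to 17.2 CPM. Mitochondrial UMIs made up 1.51% and 1.55% of the sums under E6R against 5.83% to 9.71% in the other libraries, and the part of this in the results was not tested. Between 11 and 58 cell barcodes were shared by each pair of libraries, 102 barcodes and 299 cells in all. DMSO replicate 1 and E6R replicate 1 stood apart for several of the 10 genes, as described for the neurofilament genes.

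Promoter sequence upstream of the start sites was listed by RefSeq (GRCh38.p14) for 5 of the 10 genes. The stretches shown belong to 3 genes called between E6R and TSA (MAP1B, GAP43 and DCX) and, beside them, to INA, which did not pass that test. MAP2, which also did not pass, is listed but not shown. Each is the part of the 250 bases before a listed start that no annotated exon of the gene covers, written 5′ to 3′ on the strand of the gene. Capitals mark a TATA box (TATAAA), a GC box (GGGCGG), an E-box (CACGTG) or a CCAAT box (CCAAT), searched on both strands, and no marked motif overlaps another.
MAP1B, second of 2 starts, chr5:72179537-72179627, plus strand: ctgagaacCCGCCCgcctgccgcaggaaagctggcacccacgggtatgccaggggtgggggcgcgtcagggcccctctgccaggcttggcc
GAP43, chr3:115623260-115623323, plus strand: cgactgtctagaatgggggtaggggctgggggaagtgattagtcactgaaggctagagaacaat
DCX, the last of 3 starts, chrX:111411147-111411396, minus strand: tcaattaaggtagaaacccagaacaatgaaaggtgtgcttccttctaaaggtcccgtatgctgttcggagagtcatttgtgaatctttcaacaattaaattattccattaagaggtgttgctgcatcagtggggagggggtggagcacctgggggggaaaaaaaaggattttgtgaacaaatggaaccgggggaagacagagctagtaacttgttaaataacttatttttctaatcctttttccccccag
INA, chr10:103276888-103277137, plus strand: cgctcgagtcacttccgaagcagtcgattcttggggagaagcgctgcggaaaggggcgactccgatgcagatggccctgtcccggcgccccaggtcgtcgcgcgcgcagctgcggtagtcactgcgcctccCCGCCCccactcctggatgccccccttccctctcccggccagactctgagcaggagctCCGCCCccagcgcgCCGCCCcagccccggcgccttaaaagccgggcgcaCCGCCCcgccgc
The MAP1B stretch of 91 bases held 1 GC box, as did 15.8% of 35116 listed promoters in the same 91 positions. The 250 bases of INA held 4 GC boxes, where 42.6% of all promoters hold at least 1. None of the 4 motifs was present in the GAP43 and DCX stretches shown. The MAP1B and DCX stretches lie inside the annotated genes, which begin at 72107234 and 111412429, before later listed starts. Neither is the sequence before the beginning of its gene. INA had 30 CpG dinucleotides and a GC content of 72.8%, against medians of 11 and 58% over all 250-base promoters. The internal DCX stretch had 3 and 42%. These matches describe the letters only.

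MAP1B was the gene of the set whose level moved most clearly with treatment. MAP1B (ENSG00000131711, chromosome 5, 72107234 to 72209570, plus strand of GRCh38) encodes a microtubule-binding protein of growing axons. Its level in CPM, scaled by the TMM method, was 2052 and 1771 in the 2 DMSO libraries, 650 and 648 under TSA, and 1738 and 1355 under E6R. Both TSA libraries lay far below the other 4, and under E6R both values were below the DMSO pair. The fitted log2 fold change for TSA against DMSO was -1.56 ± 0.22 (SE; 2.95-fold lower; adjusted p = 0.0027), and MAP1B was higher under E6R than under TSA by 1.25 ± 0.22 on the log2 scale (2.38-fold; adjusted p = 0.0037). E6R against DMSO gave -0.31 ± 0.22 and did not pass the test (adjusted p = 0.497). The calls involving TSA passed in all 22 alternative analyses, every omission of 1 library included. MAP1B overlaps an antisense gene, AC093218.1, and neither the labels nor the processing notes state whether the counting used strand.

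The fall of MAP1B was also a fall in the share of cells in which it was seen. After every cell was thinned to 1000 UMIs, which kept 1187 to 2789 cells per library and left out 503 to 1718 shallower ones, 82.1% and 78.3% of DMSO cells had a MAP1B UMI, 42.4% and 36.5% of TSA cells, and 75.4% and 74.2% of E6R cells. Unthinned, the group means were 85.6%, 60.4% and 85.9%. No cell type known to lack the gene was defined in these libraries, so barcodes with fewer than 300 genes served as the level outside cells. There the MAP1B level was 2669 and 2264 CPM in the DMSO libraries, 784 and 611 under TSA, and 2156 and 1971 under E6R. Median depths of these barcodes were 110 to 250 UMIs. The order of the treatments was thus the same in small barcodes, and reads from free RNA cannot be told apart from small cells there.

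MAP2, a dendritic microtubule-associated protein, did not follow MAP1B. MAP2 (ENSG00000078018, chromosome 2, 209424058 to 209734118) stood at 215 and 164 CPM under DMSO, 263 and 209 under TSA, and 379 and 287 under E6R. The E6R libraries were above all others, whereas the TSA and DMSO libraries overlapped. E6R against DMSO gave a log2 fold change of 0.81 ± 0.24 (1.76-fold), with an unadjusted p of 0.0099 from edgeR but an adjusted p of 0.211. Neither TSA against DMSO (0.32 ± 0.24, adjusted p = 0.343) nor E6R against TSA (0.50 ± 0.24, adjusted p = 0.138) passed. In thinned cells, 29.6% and 24.0% had a MAP2 UMI under E6R against 18.5% and 16.8% under DMSO and 19.5% and 13.8% under TSA.

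The ratio of these 2 microtubule-binding proteins set the 3 treatments apart. This ratio, like the ratios among neurofilament genes given further on, was chosen after the values were seen. MAP2 UMIs per MAP1B UMI were 0.105 and 0.0926 under DMSO, 0.405 and 0.323 under TSA, and 0.218 and 0.212 under E6R. The 3 groups did not overlap, with a 3.67-fold higher mean under TSA and a 2.18-fold higher mean under E6R than under DMSO. By an exact permutation test (two-sided) p was 0.333 for each, the smallest value that 2 libraries against 2 allow.

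DCX, which binds and bundles microtubules in migrating and immature neurons, was highest under E6R and lowest under TSA. DCX (ENSG00000077279, chromosome X, 111293779 to 111412429, minus strand) stood at 25.3 and 17.8 CPM under DMSO, 14.3 and 10.4 under TSA, and 41.8 and 51.8 under E6R. No group overlapped another. The difference between E6R and TSA was 1.92 ± 0.28 on the log2 scale (3.78-fold; adjusted p = 0.0020) and was called in all 22 alternatives. Against DMSO, E6R gave 1.12 ± 0.28 (2.18-fold, adjusted p = 0.205) and TSA gave -0.80 ± 0.29 (adjusted p = 0.0698), and neither passed the test. Of 22 alternatives, 5 called DCX for TSA against DMSO and 2 for E6R against DMSO. Few cells carried the transcript: in thinned cells the share was 1.94% and 1.55% under DMSO, 1.13% and 0.61% under TSA, and 2.86% and 3.68% under E6R, with unthinned means of 3.29%, 4.13% and 9.48%.

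STMN2, a tubulin-binding phosphoprotein of the growth cone, varied little between replicates. STMN2 (ENSG00000104435, chromosome 8, 79610814 to 79666175) stood at 317 and 298 CPM under DMSO, 330 and 351 under TSA, and 540 and 589 under E6R. Both E6R libraries exceeded the other 4. STMN2 was higher under E6R than under TSA by 0.73 ± 0.19 on the log2 scale (1.66-fold; adjusted p = 0.0170). That call was lost when cells were thinned to 1000 UMIs (adjusted p = 0.0866), without the top 5% of cells (0.0527), and without TSA replicate 1 (0.113), TSA replicate 2 (0.0922) or E6R replicate 2 (0.0520). E6R against DMSO gave 0.88 ± 0.19 (1.84-fold), an unadjusted edgeR p of 0.0015 and an adjusted p of 0.205. TSA against DMSO gave 0.15 ± 0.19 (adjusted p = 0.575), a direction that reversed to -0.17 when libraries were scaled by total counts alone. The share of thinned cells with an STMN2 UMI was 34.7% and 35.6% under E6R, 24.9% and 26.7% under DMSO, and 24.6% and 24.4% under TSA. The TMM-scaled CPM values of TSA and DMSO lay the other way from these shares. Plain CPM, without TMM, lay the same way as the shares, at 355 and 325 under DMSO and 304 and 303 under TSA. No order of TSA and DMSO is read for STMN2, because it depended on the scaling.

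STMN4, a stathmin related to STMN2, was close to the limit of detection. Its UMIs numbered 1 and 29 in the DMSO libraries, 19 and 20 under TSA, and 12 and 47 under E6R, over all cells. The 2 DMSO libraries enclosed all the others at 0.21 and 5.55 CPM. No comparison passed, and the fitted log2 values of -0.87 for TSA and -1.18 for E6R against DMSO carried standard errors of 1.03 and 1.02.

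GAP43 was higher under E6R than under TSA. GAP43 (ENSG00000172020, chromosome 3, 115623324 to 115721490, plus strand) stood at 115 and 204 CPM under DMSO, 106 and 112 under TSA, and 180 and 287 under E6R. The TSA libraries were the 2 lowest, close to DMSO replicate 1, and the DMSO and E6R ranges overlapped. E6R against TSA gave 1.10 ± 0.32 on the log2 scale (2.14-fold; adjusted p = 0.0290). The call was lost without TSA replicate 1 (adjusted p = 0.142), TSA replicate 2 (0.132) or E6R replicate 2 (0.0931). TSA against DMSO gave -0.55 ± 0.32 (adjusted p = 0.228) and E6R against DMSO 0.55 ± 0.32 (adjusted p = 0.405). The shares of thinned cells followed the CPM, at 11.4% and 19.0% under DMSO, 9.40% and 8.68% under TSA, and 14.6% and 20.8% under E6R.

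**Figure D1:**
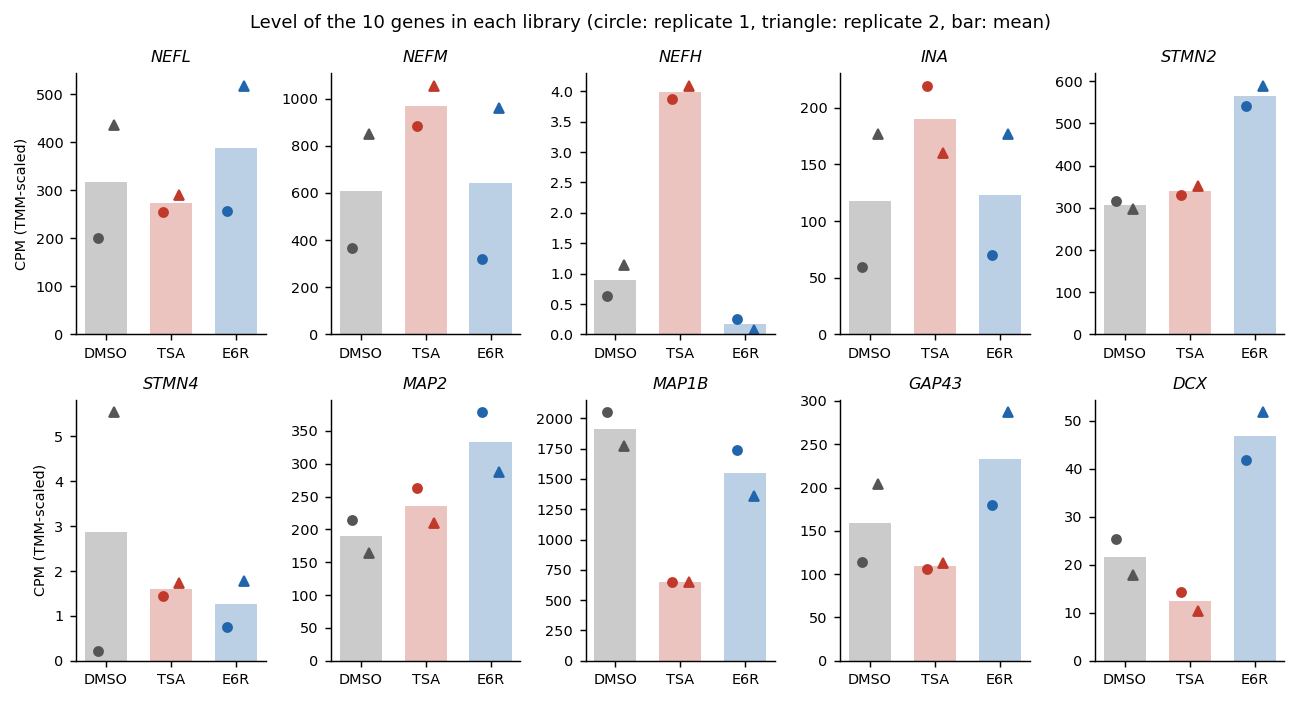
Level of each of the 10 genes in each library, in CPM scaled by TMM (vertical axes start at 0 and differ between genes), by treatment; circles are replicate 1, triangles replicate 2 and bars the mean of the 2. MAP1B sits at 650 and 648 under TSA and above 1300 elsewhere, while NEFM is 366 and 320 in replicate 1 of DMSO and of E6R and 849 to 1055 in the other libraries.

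NEFL, NEFM and INA differed more between the replicates of DMSO and of E6R than the treatment means differed from each other. NEFM (ENSG00000104722, chromosome 8, 24913012 to 24919098, plus strand), the medium chain, stood at 366 and 849 CPM under DMSO, 885 and 1055 under TSA, and 320 and 960 under E6R. Replicate 1 of DMSO and of E6R was low, and the remaining 4 libraries lay between 849 and 1055. NEFL (ENSG00000277586, chromosome 8, 24950955 to 24957110, minus strand), the light chain, lies 31856 bases from NEFM and stood at 200 and 436 CPM under DMSO, 255 and 290 under TSA, and 256 and 518 under E6R. Replicate 2 was the higher library of NEFL in each group. INA (ENSG00000148798, chromosome 10, 103277163 to 103290351), which joins the other chains in the filament, stood at 59.3 and 177 CPM under DMSO, 219 and 160 under TSA, and 69.8 and 176 under E6R. As for NEFM, only DMSO replicate 1 and E6R replicate 1 were low. NEFL overlaps the antisense gene AC107373.2 and NEFM the antisense gene AF106564.1.

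None of these 3 genes passed in the fit with treatment as the only term. For TSA against DMSO the log2 fold changes were -0.22 ± 0.42 for NEFL (adjusted p = 0.710), 0.68 ± 0.53 for NEFM (0.361) and 0.68 ± 0.55 for INA (0.373). For E6R against DMSO they were 0.28 ± 0.42, 0.08 ± 0.53 and 0.06 ± 0.55, and for E6R against TSA 0.51 ± 0.42, -0.60 ± 0.53 and -0.62 ± 0.54. Of the last 3, NEFM was called without E6R replicate 2 (-1.58, adjusted p = 0.0223) and NEFL without the low-count filter (0.75, adjusted p = 0.0122).

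The gap between DMSO replicates, as log2 of replicate 2 over replicate 1, was 1.12 for NEFL, 1.21 for NEFM and 1.58 for INA, and only 3.46%, 2.81% and 1.56% of genes had a larger one, among the 7515 tested genes whose mean reached 20 CPM. Between the E6R replicates the gaps were 1.01, 1.59 and 1.34, with 6.07%, 2.06% and 3.10% of genes beyond them. Between the TSA replicates they were 0.19, 0.25 and -0.45. STMN2 had gaps of at most 0.13 in size in each group, below the median over genes of 0.193 to 0.282. GAP43 shared part of the split, at 0.83 between DMSO replicates and 0.68 between E6R replicates.

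Other transcripts moved with that split. REST, a repressor of neuronal genes, stood at 55.0 and 17.8 CPM under DMSO, 27.7 and 22.9 under TSA, and 69.0 and 11.5 under E6R. REST was highest in the 2 libraries low for NEFM and INA. The 4 endothelial markers (PECAM1, VWF, CDH5 and KDR) summed to 49.7 and 4.59 CPM under DMSO, 11.5 and 4.70 under TSA, and 65.8 and 1.88 under E6R, with all 4 detected everywhere except KDR, which was at 0 in E6R replicate 2. Without the cells that held any UMI of these markers (6.39% of cells in DMSO replicate 1 and 11.6% in E6R replicate 1), NEFM stood at 437 and 930, 820 and 902, and 335 and 993 CPM of plain UMI sums. Cells in which no marker transcript was captured remain in these sums. The part of REST and of the endothelial markers in the split was not tested.

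The ratio of NEFM to NEFL varied less between replicates than either level did. NEFM UMIs per NEFL UMI were 1.83 and 1.95 under DMSO, 3.47 and 3.64 under TSA, and 1.25 and 1.86 under E6R. Both TSA libraries lay above all others, at a mean 1.88-fold that of DMSO (exact two-sided permutation p = 0.333). INA UMIs per NEFL UMI were 0.296 and 0.406 under DMSO, 0.861 and 0.553 under TSA, and 0.272 and 0.341 under E6R, again without overlap for TSA, at 1.99-fold the DMSO mean. NEFM per INA overlapped between all groups.

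**Figure D2:**
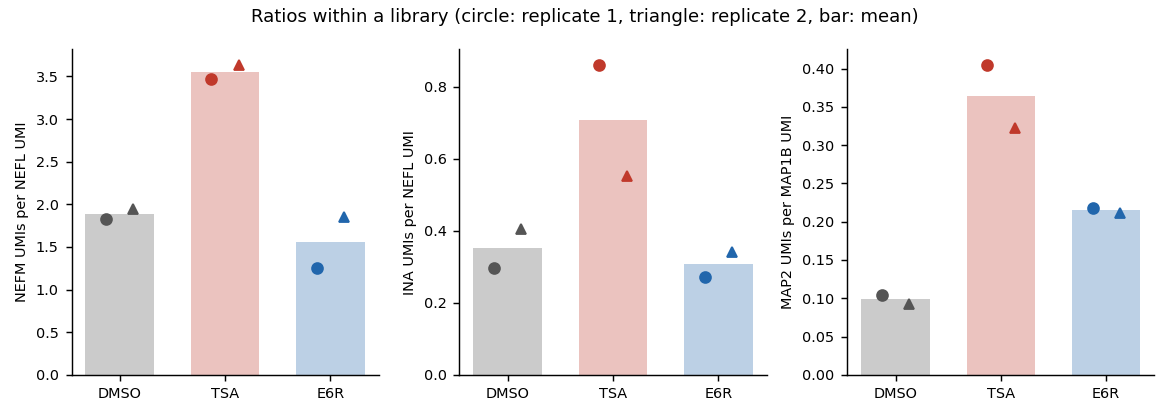
UMIs of one gene per UMI of another within each library (unitless, axes from 0), by treatment; circles are replicate 1, triangles replicate 2 and bars the mean. The TSA libraries are highest in each panel, at 3.47 and 3.64 NEFM per NEFL.

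NEFH, the heavy chain that appears late in filament maturation, was rare but differed by treatment. NEFH (ENSG00000100285, chromosome 22, 29480230 to 29491390, plus strand) had 3 and 6 UMIs under DMSO, 51 and 47 under TSA, and 4 and 2 under E6R, which is 0.64 and 1.15, 3.87 and 4.09, and 0.25 and 0.08 CPM. The TSA libraries were above and the E6R libraries below the DMSO pair. NEFH was higher under TSA than under DMSO by 2.13 ± 0.66 on the log2 scale (adjusted p = 0.0439), a call kept in 9 of 21 alternatives and lost without any 1 of the 4 libraries compared (adjusted p from 0.106 to 0.186). It was lower under E6R than under TSA by -4.64 ± 0.71 (adjusted p = 0.0023), which all 21 alternatives kept. E6R against DMSO gave -2.50 ± 0.79 (adjusted p = 0.218). From summed UMIs alone the TSA to DMSO ratio was 3.55, with a 95% counting interval of 1.80 to 7.996, and the TSA to E6R ratio was 24.8 (11.01 to 69.3). These intervals cover counting error only. An antisense gene, AC000035.1, overlaps NEFH.

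Over the set, 1 of 10 genes rose and 1 fell under TSA against DMSO (NEFH and MAP1B). Of the 16763 genes tested by edgeR, 29.7% were called in that comparison, 16.2% higher and 13.5% lower, so the share of the 10 genes lay near the background. By CPM, the libraries of the 2 groups did not overlap for 3 genes that were higher and 3 that were lower under TSA, where 71.3% of all genes did not overlap (36.7% higher and 34.6% lower). The median log2 change of the 10 genes was -0.04 and that of all genes -0.01. With total counts as the scaling, the median of all genes moved to -0.32 and the called genes split into 1717 higher and 3361 lower, in place of 2720 and 2255.

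For E6R against DMSO edgeR called none of the 10 genes, and none of all genes (0%). At an unadjusted p under 0.05, 4 of the 10 stood out (STMN2, MAP2 and DCX upwards, NEFH downwards), where 17.4% of all genes did. DESeq2 called STMN2 (adjusted p = 0.0010) and DCX (0.0430), among 338 genes in all. Without the low-count filter edgeR called STMN2, DCX and MAP2, among 1095 genes. The CPM values did not overlap for 3 higher and 2 lower genes of the set, against 47.3% of all genes (24.6% higher and 22.7% lower). The median log2 change was 0.18 for the set and 0.03 for all genes.

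For E6R against TSA, 4 of the 10 genes were higher under E6R (DCX, MAP1B, STMN2 and GAP43) and NEFH was lower, where edgeR called 38.2% of all genes, 18.7% higher and 19.5% lower. The CPM values did not overlap for 5 higher and 1 lower gene of the set, against 72.6% of all genes (33.7% higher and 38.9% lower). The median was 0.50 for the set and -0.09 for all genes. The 3 comparisons share libraries, so these counts are not independent of each other. The summed level of the 10 genes was 3350 and 3923 CPM under DMSO, 2727 and 2842 under TSA, and 3526 and 4227 under E6R.

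**Figure D3:**
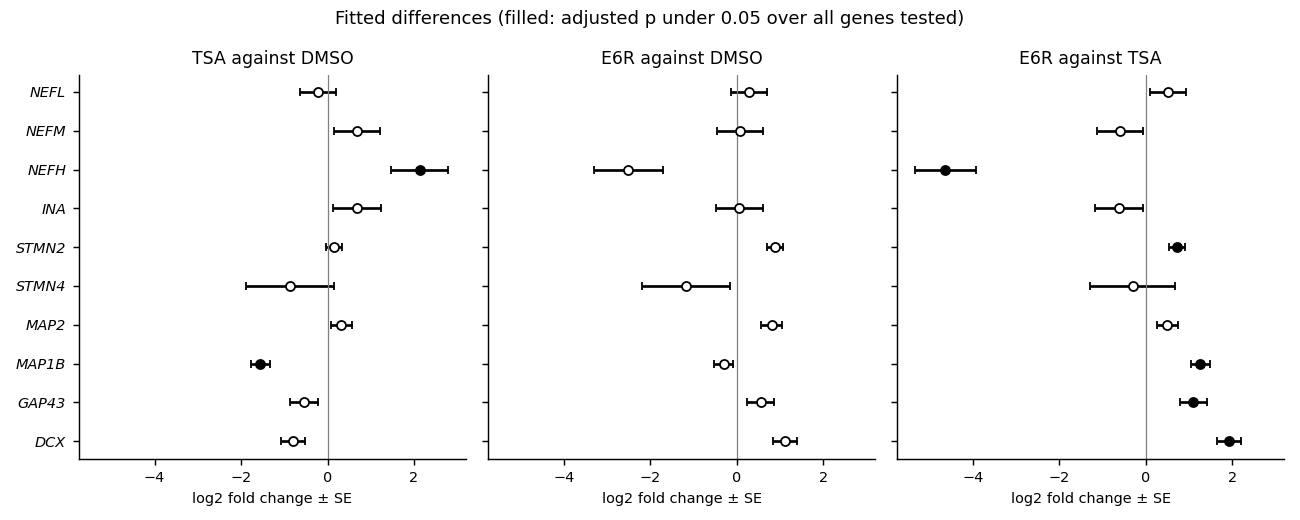
Fitted log2 fold change with its standard error for each of the 10 genes in the 3 comparisons, from edgeR over all 16763 genes; filled circles have an adjusted p under 0.05. Filled points are NEFH and MAP1B for TSA against DMSO, none for E6R against DMSO, and NEFH, STMN2, MAP1B, GAP43 and DCX for E6R against TSA.

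In thinned cells, the shares of TSA and DMSO libraries did not overlap for 4 of the 10 genes, against 62.1% of all genes tested. MAP1B, GAP43, DCX and STMN2 were lower under TSA, though the TMM-scaled CPM of STMN2 lay the other way. Unthinned, 5 genes were higher and 1 lower under TSA, where the cells were deeper. Among all 16763 genes tested, 10671 did not overlap in the unthinned cells. E6R and DMSO did not overlap for 5 (STMN2, MAP2 and DCX higher under E6R, MAP1B lower, and NEFH), against 35.5% of all genes. E6R and TSA did not overlap for 6 (STMN2, MAP2, MAP1B, GAP43 and DCX higher under E6R, and NEFH), against 63.2%. NEFH had 1 and 4 positive thinned cells under DMSO and 8 and 5 under TSA, too few to compare with the E6R libraries. With 2 libraries a group these shares carry no call. NEFM was seen in 26.2% and 53.9% of DMSO cells, 50.3% and 52.6% of TSA cells and 22.9% and 58.1% of E6R cells, so its replicate split was a difference in positive cells as well as in level. A thinned cell had a UMI of 1.69 to 2.69 of the 10 genes on average.

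**Figure D4:**
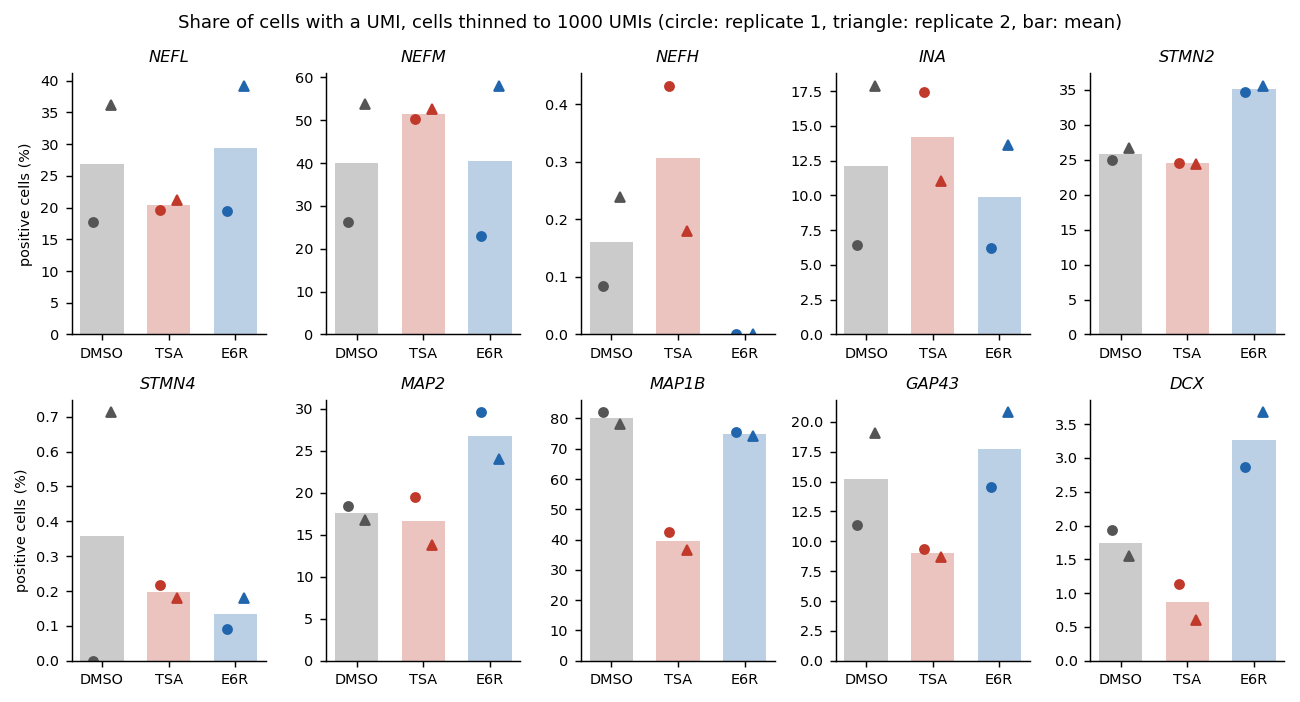
Percentage of cells with at least 1 UMI of each gene, each cell thinned to 1000 UMIs (axes from 0, scales differ), by treatment; circles are replicate 1, triangles replicate 2 and bars the mean. MAP1B falls from 82.1% and 78.3% under DMSO to 42.4% and 36.5% under TSA, and STMN2 is highest under E6R at 34.7% and 35.6%.

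Within libraries NEFM was unevenly spread over cells. The Fano factor is the variance over the mean of UMIs per thinned cell, where 1 is the value of pure counting. For NEFM it was 2.59 and 1.61 under DMSO, 1.65 and 1.65 under TSA, and 2.89 and 2.00 under E6R. For MAP1B it was 2.13 and 1.58, 1.55 and 1.42, and 2.04 and 2.20 in the same order. An uneven spread was thus not particular to NEFM. In DMSO replicate 1 and E6R replicate 1, 73.8% and 77.1% of cells had no NEFM UMI, against 41.9% to 49.7% in the remaining libraries. Cells with 4 or more NEFM UMIs numbered 29 and 49 under DMSO, 56 and 97 under TSA, and 18 and 145 under E6R. The class is a range with a limit set by hand: 42 to 221 cells per library lay close to that limit.

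Cells with 4 or more NEFM UMIs also held more NEFL and MAP1B, compared here with cells that had none and without a test, because the cells of a library are not replicates. NEFL was higher in the NEFM-rich cells in 6 of 6 libraries, by ratios of 1.41 to 4.82, and the 95% counting intervals of the 2 classes were apart in 5. STMN2 was nominally higher in 6 of 6, by 1.13 to 1.49, but its intervals overlapped in every library. MAP1B was higher in 6 of 6, by 1.22 to 2.47, for example 5655 against 2291 CPM in DMSO replicate 1 and 3510 against 1573 in E6R replicate 2, with intervals apart in 5. GAP43 was above in 5 libraries, INA in 4, and MAP2 and DCX in 3 each, all with overlapping intervals. The summed mitosis markers and the summed adrenergic markers were also higher in the NEFM-rich cells in all 6 libraries. The summed mesenchymal markers were lower in 5 of 6. Before thinning, the NEFM-rich cells were shallower in all 6 libraries. Their median UMIs ran from 2452.5 against 2678 in TSA replicate 1 to 1536.5 against 3069 in E6R replicate 1. The part of the markers and of depth was not tested. Over single cells the correlations of UMI counts among the 8 more abundant genes were weak: 28 pairs in 6 libraries gave r from -0.05 to 0.26 with a median of 0.02, the highest for NEFM with MAP1B. In counts this sparse such values are no finding.

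**Figure D5:**
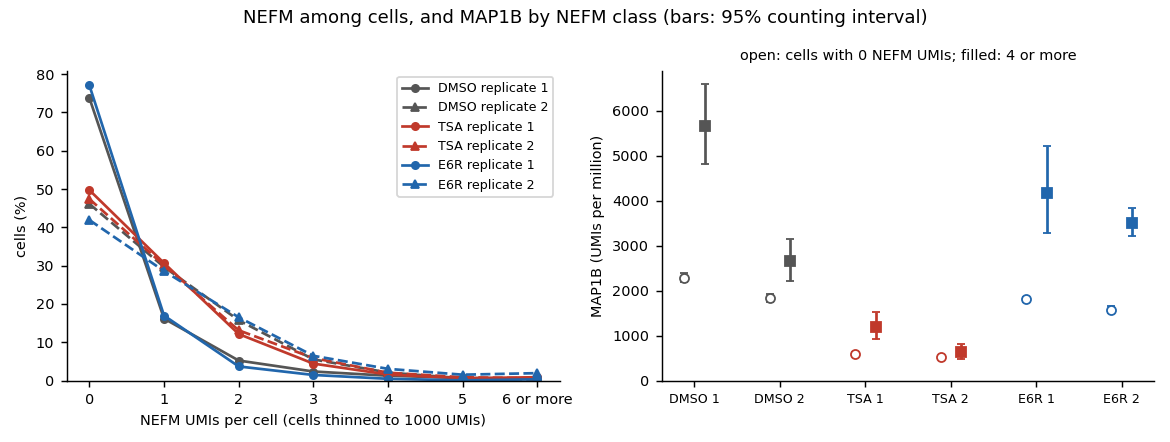
Left, percentage of cells by NEFM UMIs per cell, each cell thinned to 1000 UMIs, one line per library; right, MAP1B level (CPM) in cells with 0 NEFM UMIs (open) and with 4 or more (filled), bars showing the 95% counting interval. DMSO replicate 1 and E6R replicate 1 have the most cells without NEFM, 73.8% and 77.1%, and MAP1B is higher in the NEFM-rich cells of each library, with overlapping intervals in TSA replicate 2.

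Cells high in mitosis transcripts were set against cells with none of them inside each library. Cells at or above the 75th percentile of summed UMIs of 20 mitosis genes (303 to 740 per library) were compared with cells that had none (40 to 233), in an edgeR fit with the library as a block. Of the 7 genes of the set that passed the count filter, GAP43 and STMN2 were lower in the mitosis-high cells, by -0.65 ± 0.17 (adjusted p = 0.0041; lower in 4 of 6 libraries) and -0.48 ± 0.13 (adjusted p = 0.0057; lower in 5 of 6) on the log2 scale. The mitosis genes themselves gave 4 higher and 4 lower calls of 20 for TSA against DMSO, 0 for E6R against DMSO, and 5 higher and 2 lower for E6R against TSA, where 29.7%, 0% and 38.2% of all genes were called. Over all 5265 genes tested between the cell classes 11.3% were called, and 4.88% were lower. GAP43 averaged 155 CPM in the high and 250 CPM in the low cells, and STMN2 366 and 508. Both calls were lost without E6R replicate 1 (adjusted p = 0.0714 and 0.0889) and without E6R replicate 2 (0.198 and 0.167). Both were also lost without the low-count filter (0.0859 for GAP43 and 0.231 for STMN2), and STMN2 with cells thinned to 2000 UMIs (0.270) and with 3 or more UMIs as the limit of the high class (0.0518). In all, GAP43 was called in 7 and STMN2 in 5 of 10 alternatives. INA (-0.49 ± 0.17, adjusted p = 0.0598), MAP2, NEFL, NEFM and MAP1B did not pass. The cells between the 2 classes were the most numerous, and the classes are ranges of a score, not dividing and resting cells. Before thinning, median UMIs in the low and high cells were 4529 and 3068.5 in E6R replicate 1. In E6R replicate 2 they were 4365.5 and 2380. The low cells were also deeper in DMSO replicate 2 and TSA replicate 1, and shallower in DMSO replicate 1 and TSA replicate 2. The part of depth was not tested.

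Other intermediate filament genes gave 2 higher and 2 lower calls out of 7 under TSA against DMSO, where 16.2% of all genes were called higher and 13.5% lower. Vimentin (VIM), of mesenchymal and precursor cells, was 836 ± 198 CPM under DMSO, 2300 ± 764 under TSA and 1447 ± 290 under E6R (SD, n = 2), a rise of 1.46 on the log2 scale under TSA (adjusted p = 0.0113). Nestin (NES), a filament of neural precursors, rose by 1.07 (adjusted p = 0.0182). The NES call was lost when libraries were scaled by total counts alone (adjusted p = 0.0646). Peripherin (PRPH), the intermediate filament of peripheral neurons, was 257 ± 68.6, 44.8 ± 13.3 and 300.3 ± 99.5 CPM in the same order, and fell under TSA by 2.52 (adjusted p = 0.0024). LMNB1, a nuclear lamin, fell by 1.26 (adjusted p = 0.0169). PRPH and LMNB1 were also higher under E6R than under TSA, by 2.75 and 2.04 (adjusted p = 0.0011 and 0.0020), within 3 higher and 0 lower calls of 7, against 18.7% and 19.5% of all genes.

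Of 20 other microtubule-associated genes, 7 rose and none fell under TSA against DMSO by edgeR, against 16.2% and 13.5% of all genes, and 9 had an unadjusted p under 0.05 in either direction, against 42.6%. The list's median log2 change was 0.49 and that of all genes -0.01. MAPRE3, a microtubule plus-end binding protein, was 10.4 and 22.0 CPM under DMSO, 49.6 and 65.5 under TSA, and 14.6 and 17.1 under E6R (1.82 for TSA against DMSO, adjusted p = 0.0086). MAPRE2, of the same family, rose by 1.74 (adjusted p = 0.0244). E6R against TSA gave 5 lower and 0 higher calls of 20 (19.5% and 18.7% of all genes), among them MAPRE3 (-1.86, adjusted p = 0.0050) and MAP1S (-1.21, adjusted p = 0.0056), which is related to MAP1B. MAP1B thus went against the direction of the called genes in this list. Of 2 further stathmins, STMN3 was higher under E6R than under TSA (0.87, adjusted p = 0.0248), where 18.7% of all genes were called higher. The STMN3 call was lost when cells were thinned to 1000 UMIs (adjusted p = 0.124). Neither stathmin was called against DMSO.

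Growth cone and axon guidance genes split evenly under TSA against DMSO, with 5 higher and 5 lower of 27 tested (16.2% and 13.5% of all genes) and a median of -0.20, that of all genes being -0.01. ROBO1, a receptor for Slit ligands, rose from 83.8 ± 31.7 to 402 ± 42.2 CPM (SD, n = 2; log2 2.26, adjusted p = 0.0125), and DPYSL4, a collapsin response mediator, rose by 1.68 (adjusted p = 0.0078). Of the semaphorin receptors, PLXNA2 fell by 2.45 (adjusted p = 0.0009) and PLXNA4 fell by 3.92 (adjusted p = 0.0049). PLXNA2 was 68.2 and 85.5 CPM under DMSO, 12.99 and 15.2 under TSA, and 99.3 and 79.5 under E6R. E6R against TSA gave 9 higher and 4 lower of 27 (18.7% and 19.5% of all genes), with NRP1, a semaphorin co-receptor, higher by 2.73 (adjusted p = 0.0059).

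Axonal motors, spectrins and ankyrins gave 5 higher and 4 lower calls of 18 under TSA against DMSO, against 16.2% and 13.5% of all genes. KIF1A, a motor of synaptic vesicle precursors, was 29.1 and 28.9 CPM under DMSO, 235 and 285 under TSA, and 23.9 and 30.1 under E6R (3.17, adjusted p = 0.0005). The spectrin SPTAN1 rose by 2.16 (adjusted p = 0.0034). KIF21A, a kinesin that limits microtubule growth, was 415 and 688 CPM under DMSO, 44.5 and 53.6 under TSA, and 493 and 698 under E6R (-3.49 for TSA against DMSO, adjusted p = 0.0009), and KIF5B, a heavy chain of conventional kinesin, fell by 0.91 (adjusted p = 0.0131). E6R against TSA gave 4 higher and 7 lower of 18, against 18.7% and 19.5% of all genes.

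Among kinases and regulators tied to the 10 genes, 0 rose and 4 fell of 24 tested under TSA against DMSO, against 16.2% and 13.5% of all genes. ELAVL4, a neuronal RNA-binding protein known to bind GAP43 messenger RNA, was 75.6 and 109 CPM under DMSO, 15.3 and 11.9 under TSA, and 110 and 156 under E6R. It fell by 2.76 under TSA (adjusted p = 0.0011) and was higher under E6R than under TSA by 3.29 (adjusted p = 0.0004), with 0.53 for E6R against DMSO (adjusted p = 0.341). REST did not pass in any comparison (adjusted p from 0.512 to 0.941), but was called higher under E6R than under TSA in 2 of 22 alternatives, without E6R replicate 2 (1.47, adjusted p = 0.0345) and without the low-count filter (0.92, adjusted p = 0.0079). PRKCE, a protein kinase C, was higher under E6R than under TSA by 1.92 (adjusted p = 0.0012) and PRKCA, another one, lower by -0.92 (adjusted p = 0.0469), within 4 higher and 3 lower of 24 (18.7% and 19.5% of all genes). The PRKCA call was lost in 13 of 22 alternatives, among them each omission of a TSA or E6R library (adjusted p from 0.0782 to 0.247). For E6R against DMSO edgeR called 0 genes of all 6 lists. Of their 98 tested genes, 12 had an unadjusted edgeR p under 0.05, where 17.4% of all genes did.

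Across the 6 libraries NEFM and INA followed each other most closely of all pairs among the 8 more abundant genes (Pearson r of log2 CPM = 0.94), followed by NEFL with GAP43 (0.84) and STMN2 with DCX and with MAP2 (0.81 each). These values describe 6 libraries that share depth and treatment and carry no test. The gene most like each of the 8 was NDUFAF2 for NEFL (r = 0.993), SPOUT1 for NEFM (0.994), CLGN for INA (0.998), GSPT1 for STMN2 (0.9996), NFKBIE for MAP2 (0.991), SNHG14 for MAP1B (0.994), YWHAH for GAP43 (0.998) and DPP7 for DCX (0.996), among 7515 genes. With 6 points such values are common: 738 genes had r above 0.9 with MAP1B and 53 with NEFL.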

How the data were processed

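Single-cell RNA-seq (Seq-Well S3) was deposited for 6 libraries, 2 for each of DMSO, TSA and E6R. The deposited matrices held raw UMI counts per gene and barcode, not normalized; the submitters' processing notes name STARsolo 2.7.9a and GRCh38, with no roles. Strand rule and annotation are not stated in the labels. A barcode counted as a cell with 500 or more genes and no more than 20% of its UMIs in the 13 mitochondrial genes. Doublets were not called; omitting the top 5% of cells by UMIs was tried instead.

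Counts of all cells in a library were added up (4206366 to 26180262 UMIs) and the sums were tested with edgeR 4.0.16 in R 4.3.3: TMM scaling, filterByExpr, quasi-likelihood test, group as the only term, all 6 libraries in 1 fit, Benjamini-Hochberg at 0.05 over 16763 genes. Adjusted p-values come from edgeR unless another tool is named. Printed log2 fold changes and their standard errors come from that fit. The mitosis comparison used cells thinned to 1000 UMIs with the library as a block. The fits were tested on simulated data with 1 common spread per fit. Of genes with a true 2-fold change, 7% were called for TSA against DMSO and 10% for E6R against TSA. Of genes with a 4-fold change, 73% and 82% were called. The mitosis fit called 91.7% and 100%. No change was simulated for E6R against DMSO. A gene that did not pass is thus not shown to be unchanged. Alternatives were DESeq2 1.42.0, limma 3.58.1 voom, other scalings, filters and thinning, a replicate block, and each library left out; omitting the top 1% of cells and the cells of shared barcodes was added after seeing the data.

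The 10 genes and the lists were chosen with earlier results of these data known. All 10 were named; from each list the 2 largest calls in each direction, with a mean of at least 20 CPM, could be named per comparison, with REST and ELAVL4 in every case. Ratios within a library and the NEFM classes were chosen after the values were seen. Intervals cover counting error only. A gene that this rule names is not reported here.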

Additional observations from a re-analysis of the deposited data

How the results depend on the processing

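Each comparison between treatments was recomputed under 22 alternatives and the mitosis comparison under 10; the cause of each change was not tested. With each library left out in turn, calls over all genes ranged from 1416 to 6028 for TSA against DMSO (4975 in the report), 0 to 3 for E6R against DMSO (0) and 2628 to 6385 for E6R against TSA (6408), and calls among the 10 genes from 1 to 2, 0 to 0 and 3 to 5; in the mitosis comparison they ranged from 0 to 3 among the 10 genes and from 404 to 657 over all genes. The lowest counts for the comparisons with TSA came without TSA replicate 2, while without TSA replicate 1 TSA against DMSO gave 1769 calls and E6R against TSA 3175, and without DMSO replicate 1 or 2 TSA against DMSO gave 2508 or 2696; a group left with 1 library is assumed to vary like the others. For TSA against DMSO, 1 of the 10 genes was called with voom, at most 10% mitochondrial UMIs, the top 5% or the top 1% of cells left out, cells thinned to 1000 UMIs, or no mitochondrial and ribosomal protein genes. For E6R against DMSO, 338 genes were called by DESeq2 and 1095 without the low-count filter (2 and 3 of the 10 genes), 2 with library sums thinned, and 1 with all barcodes, without the top 1% of cells, without shared barcodes, or without mitochondrial and ribosomal protein genes. For E6R against TSA, cells thinned to 1000 UMIs gave 4084 calls, 3 of them among the 10 genes. With 3 or more UMIs as the limit for mitosis-high cells, 1 of the 10 genes was called. For TSA against DMSO, DCX was called and NEFH was not with total counts, DESeq2, or 1000 or more genes.

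The replicate numbers are only labels. With them as a replicate block, calls over all genes were 6047, 19 and 7567 for the 3 comparisons, and TSA against DMSO called 4 of the 10 genes, with NEFM (adjusted p = 0.0379) and DCX (0.0472) added, while E6R against TSA added NEFM (0.0351). The replicate deviations correlated at 0.24 (DMSO with TSA), 0.56 (DMSO with E6R) and 0.17 (TSA with E6R) over 7515 genes.

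Genes that had not passed turned direction in these cases (log2 fold changes). With each library left out in turn, TSA against DMSO ranged from -0.64 to 0.37 for NEFL, -1.76 to 2.78 for STMN4 and -1.20 to 0.55 for REST, each end set by a DMSO library. E6R against DMSO ranged from -0.27 to 0.99 for NEFL, -0.88 to 0.84 for NEFM, -0.72 to 1.09 for INA, -1.98 to 2.58 for STMN4 and -1.55 to 1.32 for REST. E6R against TSA ranged from -0.067 to 0.998 for NEFL, -1.58 to 0.058 for NEFM, -1.04 to 0.22 for STMN4 and -1.06 to 1.47 for REST, each end set by an E6R library. Mitosis-high against low cells ranged from -0.041 to 0.023 for NEFL, which was 0.13 without the filter, as MAP1B was 0.050. Under other settings of E6R against DMSO, NEFM was -0.046 (total counts), -0.0085 (voom) and -0.020 (library sums thinned). INA was -0.062 (total counts), -0.16 (top 5% of cells out), -0.38 (cells thinned), -0.019 (library sums thinned), -0.012 (top 1% out) and -0.023 (shared barcodes out), and REST -0.052 (replicate block), -0.0058 (total counts) and -0.21 (voom). For TSA against DMSO, STMN2 was -0.17 with total counts and STMN4 0.21 with voom. Depth limits NEFH and STMN4 most: neither could be tested in thinned cells. Of the list genes named, VIM, NES, LMNB1, MAPRE2, MAPRE3, ROBO1, DPYSL4, PLXNA4 and KIF5B for TSA against DMSO, and STMN3, MAPRE3, MAP1S and NRP1 for E6R against TSA, lost their call without at least 1 library of the groups compared (adjusted p from 0.0509 to 0.177).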
